A study of Mus musculus with 6 samples.

Results

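The genes described here are 10 G protein-coupled receptors for chemoattractants and metabolites: the chemokine receptors Cxcr4, Cxcr2, Ccr1, Ccr2, Ccr9 and Cx3cr1, the formyl peptide receptors Fpr1 and Fpr2, the complement receptor C5ar1 and Ffar2, a receptor for short-chain fatty acids. They were chosen by name, with earlier results of these data known. A gene was read from the array row that names it and no other gene. Of the 10 genes, 8 had such a row, 1 row each, among 19938 genes so named on the array. The table used here has no row for Fpr1 or Fpr2, which were not analysed here.

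The values come from LSK CD150- cells of mouse bone marrow, the Lin-negative, Sca-1-positive, Kit-positive cells that hold stem and multipotent progenitor cells, here without the fraction that carries the stem cell marker CD150. Cells were sorted from 3 mice of genotype Cebpafl/fl (the controls) and 3 mice of genotype Cebpafl/fl;Mx1Cre (the deleted group), all sampled on day 18 after injection of pIpC, and each mouse was read on its own Affymetrix Mouse Gene 1.0 ST array (n = 3 per group). All 6 mice carried the floxed Cebpa allele and received pIpC, a double-stranded RNA that switches on the interferon-responsive Mx1 promoter. That promoter drives Cre in many tissues, so deletion was not restricted to blood cells, and no control carried Cre. The effect of the transgene and that of the deletion cannot be told apart. The comparison asks how the genes expressed in early progenitors differ after loss of C/EBPα, a transcription factor that directs progenitors to the granulocyte and monocyte lineages.

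These receptors sit in the cell membrane and pass the binding of a small protein, peptide or metabolite to inhibitory G proteins, which act on calcium release, phosphoinositide 3-kinase and the actin skeleton, so that a cell moves up a gradient of the ligand. CXCR4, the receptor of CXCL12, holds stem and progenitor cells in the marrow. CXCR2 opposes that retention in maturing neutrophils, CCR2 releases monocytes into blood, and CCR9 guides lymphoid progenitors to the thymus. The formyl peptide and C5a receptors and FFAR2 are best known from mature phagocytes, where they sense bacterial peptides, complement cleavage and bacterial fermentation products.

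As a check of the samples, Cebpa read 7.84, 7.85 and 7.73 in controls and 6.37, 5.82 and 6.09 in the deleted group (log2 fold change -1.71 ± 0.14 SE, limma adjusted p = 0.000883). Whether its probes bind inside the floxed sequence is not known here, and this fall is therefore no measure of how complete the deletion was. To judge which rows stand above background, 1015 olfactory receptor genes, which blood cells are not known to use, served as a reference: 95% of them had a group mean under 6.10 in controls and under 6.12 in the deleted group. Cebpa in the deleted mice lay above the reference of its array in deleted a alone. Kit, Cd34, Flt3 and Cd48 read above the corresponding reference on all 6 arrays, whereas Slamf1, which encodes CD150, did so on 0 arrays. Of these 5 genes, Cd48 rose (log2 fold change 1.00 ± 0.11 SE, limma adjusted p = 0.00520) while Kit (-0.75 ± 0.13 SE, limma adjusted p = 0.0270) and Flt3 (-0.71 ± 0.14 SE, limma adjusted p = 0.0469) fell. Their part in the differences of the receptors was not tested. Ly6a, which encodes Sca-1, was not analysed here. The labels call the mice female, yet the rows of the Y-linked genes Kdm5d, Eif2s3y and Uty lay above the reference on all 6 arrays. Whether these rows also bind transcripts of other genes is not known here, and Ddx3y was not measured, so the sex is left as labelled. Each array read a mixture of sorted cells, so fewer cells of a type and less RNA per cell cannot be told apart.

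Ffar2 and Ccr1 were higher after deletion, and none of the 8 measured receptors was lower. Cxcr2 was higher in every deleted mouse without passing the test over all genes, and Cxcr4, Cx3cr1 and C5ar1 differed little between the genotypes. Of all 19938 genes, 0.702% were higher and 0.732% lower at a limma adjusted p under 0.05, against 2 and 0 of these 8 receptors. The receptors were chosen with earlier results of these data known, so setting them beside all genes is a description and no independent test. The receptors had a median log2 fold change of 0.38, against 0.03 over all genes, and 5 of the 8 were positive, against 56.5% of all genes. That median lies between the values of Ccr9 (0.34) and Ccr2 (0.43), which did not pass. Both read under the olfactory reference on all 6 arrays, as did Ccr1. Of the 3 receptors with a mean above the reference, Ffar2 rose, while Cxcr4 (-0.03) and Cx3cr1 (-0.07) did not. In 3 of the 8, Ffar2, Ccr1 and Cxcr2, all deleted values lay above all control values, which was so for 12.5% of all genes. The opposite order held for 0 of the 8 and for 8.68% of all genes.

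**Figure D1:**
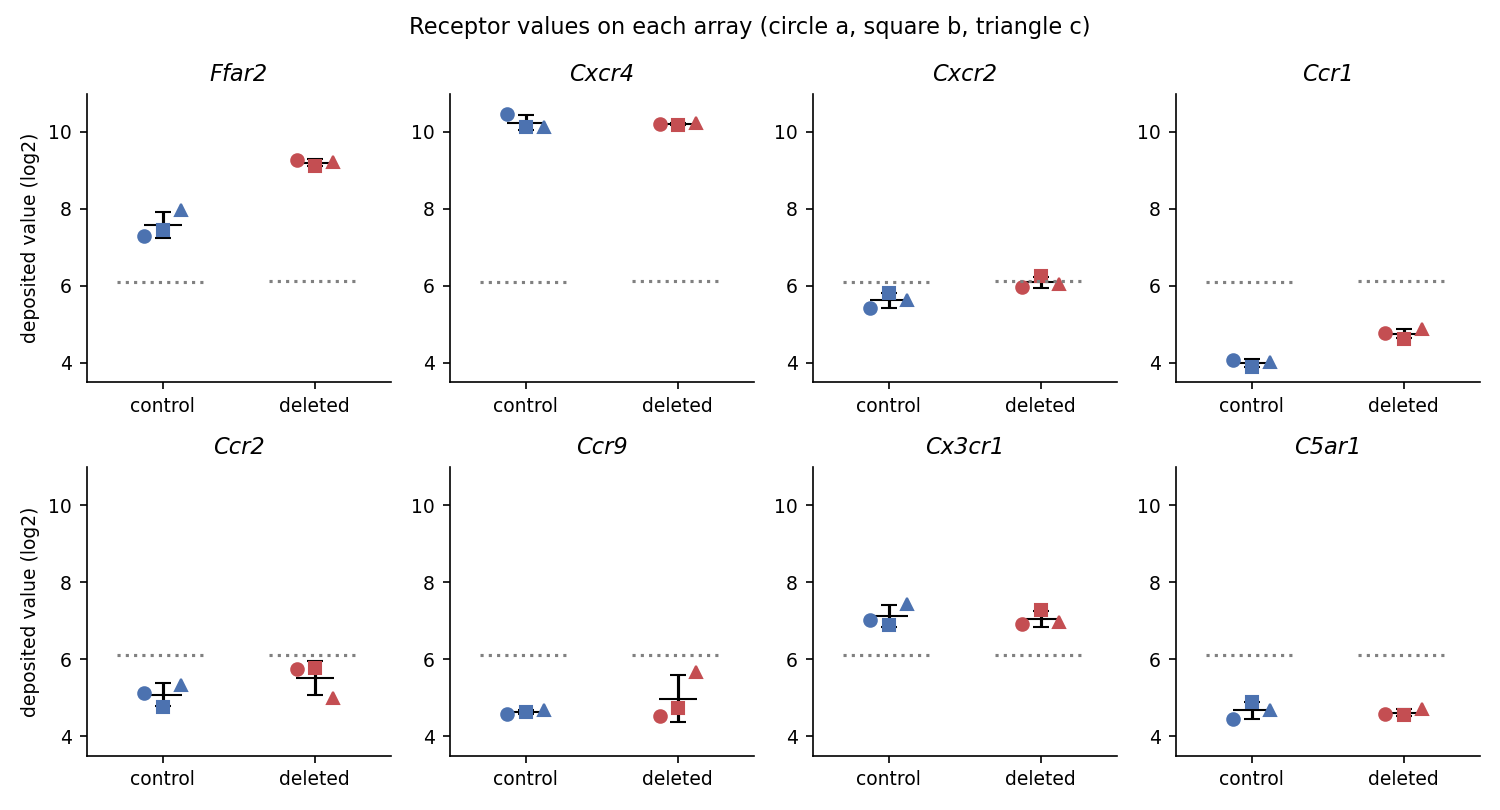
Deposited log2 values of the 8 measured receptors in control (blue) and deleted (red) mice; each symbol is an array (circle a, square b, triangle c), the dash with bars is the mean ± SD of 3 arrays, and the dotted lines mark the level under which 95% of olfactory receptor genes lie, 6.10 and 6.12. Ffar2 is higher in all deleted mice and above the dotted lines throughout, Ccr1 is higher but far below them, and the values of Cxcr4 overlap between 10.12 and 10.46; heights should be compared within a panel, since rows of different genes differ in how they bind.

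Markers of several other cell types differed between the same groups, beside the receptors. Of 13 neutrophil markers 4 fell (S100a8, S100a9, Csf3r and Camp) and 0 rose, and the sum of their values on a linear scale was 1678 to 1852 in controls and 667 to 800.3 in the deleted mice. Ly6g, Retnlg, Ltf, Lcn2, Mmp8 and Mmp9 were under the reference on all 6 arrays. Of the 9 that did not pass, Itgam (log2 fold change 0.41, groups not overlapping) and Cd177 (-0.10) read above the reference on all 6 arrays. In the deleted mice the means of S100a8, S100a9 and Camp lay under the reference, so those levels were not separated from background. Of 9 mast cell and basophil markers, Cpa3 rose and 0 fell (summed value 775 to 801 against 3042 to 3713), with Prss34, Ms4a2, Fcer1a and Mcpt4 under the reference throughout. The rise of that sum came chiefly from Cpa3 (log2 fold change 3.47), and the other 8 markers did not pass. Among them, Mcpt8 (0.09) and Gata2 (0.13) read above the reference on all 6 arrays. Of 11 markers of T, NK and innate lymphoid cells, Gzmb rose and 0 fell (962 to 1108 against 1169 to 1785), with Cd3e, Cd3g, Cd3d, Ncr1, Klrb1c and Il7r under the reference throughout. Of the other 10, which did not pass, Nkg7 read above the reference on all 6 arrays (log2 fold change 0.15). Of 9 monocyte and macrophage markers, Cd68 fell and 0 rose (893 to 989.5 against 754 to 888). Csf1r, Adgre1, Ms4a7, F13a1 and Clec7a were under the reference throughout. The fall of that sum came chiefly from Cd68 (log2 fold change -0.90). Ctss, which did not pass, read above the reference on all 6 arrays (log2 fold change -0.08). Among granulocyte precursor, B cell, dendritic cell, eosinophil, erythroid and megakaryocyte, and stromal and endothelial markers, 0 genes passed. Their summed values in controls and deleted mice were 2867 to 3580 and 3187 to 4572 for the 7 granulocyte precursor markers, and 719 to 745 and 853 to 941 for the 7 B cell markers. They were 1989 to 2492 and 1911 to 2070.2 for the 10 dendritic cell markers, and 259 to 309 and 291 to 331 for the 5 eosinophil markers. The 6 erythroid and megakaryocyte markers summed to 607 to 690.3 and 588 to 618, and the 7 stromal and endothelial markers to 611 to 688 and 752 to 821. The smallest p in these lists belonged to Elane (log2 fold change -0.57), Vpreb1 (0.46), H2-Aa (-0.84), Siglecf (0.34), Itga2b (0.44) and Pecam1 (0.51), with limma adjusted p from 0.0956 to 0.193. The higher sums of the stromal and endothelial and of the B cell markers came chiefly from Pecam1 and Vpreb1, respectively. Cxcl12, Pdgfra, Cdh5, Kdr and Lepr were under the reference on all 6 arrays, and Col1a1, above it throughout, had a log2 fold change of -0.04. Whether cells of the types in this section were present among the sorted cells is not known from these markers. Any part of such cells in the differences of Ffar2, Ccr1 and Cxcr2 was not tested.

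Ffar2, formerly Gpr43, encodes the receptor of acetate, propionate and other short-chain fatty acids. It read 7.31, 7.47 and 7.97 in controls and 9.27, 9.11 and 9.23 in the deleted mice on the log2 scale. The groups were more than a log2 unit apart, and the deleted mice lay closer together than the controls, among which control c was the highest. The means were 7.58 ± 0.35 and 9.20 ± 0.09 (SD, n = 3 each), a 3.08-fold rise with a 95% interval of 2.39 to 3.97. On the log2 scale the rise was 1.62 ± 0.16 (SE, limma adjusted p = 0.00319), and it ranked 8 among all genes with a positive change. Exact permutation of the 6 arrays gave a two-sided p of 0.1, below which a design of 3 against 3 mice cannot go. With each array left out in turn the log2 fold change lay between 1.48 and 1.82 and the adjusted p between 0.0010 and 0.0233. Among the alternatives run, the call was lost only when all 35556 deposited rows, those without a gene name or with several included, were tested together (adjusted p = 0.0777).

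The promoters of Ffar2 are shown because it had the largest change of the 8 receptors and the deleted gene encodes a DNA-binding protein. RefSeq (GRCm38.p6) gives windows of 300 bases for all 10 receptors, 13 in all, of which 4 belong to alternative starts of Ffar2. They were searched on both strands for a C/EBP motif, TTGCNNAA, and for the core of the PU.1 motif, GAGGAA. The 250 bases before each start are given 5′ to 3′ on the minus strand, with matches to either motif in capitals, and Ccr1, the other receptor that passed the test, is set beside Ffar2. The remaining Ffar2 window overlaps the first and is not shown.
Ffar2, chr7:30821140-30821389: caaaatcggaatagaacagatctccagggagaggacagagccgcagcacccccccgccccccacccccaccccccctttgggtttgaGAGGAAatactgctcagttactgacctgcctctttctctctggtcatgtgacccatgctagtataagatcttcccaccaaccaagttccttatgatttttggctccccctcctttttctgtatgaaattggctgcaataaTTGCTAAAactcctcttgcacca
Ffar2, chr7:30821649-30821898: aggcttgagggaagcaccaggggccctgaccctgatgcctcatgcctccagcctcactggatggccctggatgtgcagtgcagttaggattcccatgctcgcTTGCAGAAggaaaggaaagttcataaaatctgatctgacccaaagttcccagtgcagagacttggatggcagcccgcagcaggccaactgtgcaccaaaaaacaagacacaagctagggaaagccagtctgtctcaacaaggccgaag
Ffar2, chr7:30823776-30824025: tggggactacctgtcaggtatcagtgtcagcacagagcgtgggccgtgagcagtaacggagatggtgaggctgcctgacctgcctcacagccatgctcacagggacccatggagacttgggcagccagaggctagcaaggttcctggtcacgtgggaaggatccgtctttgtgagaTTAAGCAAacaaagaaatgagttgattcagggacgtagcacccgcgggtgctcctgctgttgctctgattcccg
Ccr1, chr9:123968693-123968942: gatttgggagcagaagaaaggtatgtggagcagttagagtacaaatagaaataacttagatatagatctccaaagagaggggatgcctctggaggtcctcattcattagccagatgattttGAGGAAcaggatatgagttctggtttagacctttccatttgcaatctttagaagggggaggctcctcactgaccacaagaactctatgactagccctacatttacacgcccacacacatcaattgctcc

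In these windows the C/EBP motif began at base -23, -148 and -74 from the respective Ffar2 start, and the overlapping window held the first of these matches at base 31 after its own start. All 4 Ffar2 windows thus held the motif, and 0 of the 9 windows of the other receptors did, including that of Ccr1. Over the 32851 promoter windows of the table, 10.8% held it. The PU.1 core occurred in windows of Ffar2, Ccr1, Cxcr2 and Fpr2, 5 windows in all, and in 28.3% of all windows. No match overlapped a match to the other motif. A match of letters is not a binding site, and no binding was measured here. CpG pairs numbered 20 in the Cxcr4 window and between 1 and 11 in the others, with a median of 7 over all windows.

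Ffar2 lies on chromosome 7, as does Cebpa, in a cluster with the fatty acid receptors Ffar3 and Ffar1. Of the 10 genes next to it in RefSeq order, 8 were measured and 0 passed the test, with log2 fold changes from -0.09 (Gapdhs) to 0.39 (Tmem147). Ffar3, the other short-chain fatty acid receptor, read 5.61, 5.72 and 6.12 in controls and 5.99, 6.11 and 6.14 in the deleted mice. These groups overlapped, all 6 values lay under the reference of their arrays, and the log2 fold change was 0.26 ± 0.14 (SE, limma adjusted p = 0.404). Ffar1, the receptor of longer fatty acids, had a log2 fold change of 0.01 ± 0.12 (SE, limma adjusted p = 0.978). Cd22, an inhibitory receptor of B cells next to that cluster, had 0.06 ± 0.11 (SE, limma adjusted p = 0.860).

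Ccr1, the receptor of CCL3, CCL5 and related chemokines on monocytes and neutrophils, read 4.08, 3.89 and 4.03 in controls and 4.78, 4.62 and 4.87 in the deleted mice. All deleted values were above all control values, but every value of either group lay below the olfactory reference. The means were 4.0 ± 0.10 and 4.76 ± 0.12 (SD, n = 3 each). The difference was 0.76 ± 0.11 (SE) on the log2 scale, or 1.69-fold with a 95% interval of 1.43 to 2.01, with a limma adjusted p of 0.0141 and an exact permutation p of 0.1. Its mean over all arrays was higher than that of 50.7% of olfactory receptor genes, so the row was not separated from background and the fold is a ratio of deposited values. Among the 1015 olfactory receptor genes, 0 were higher and 1 was lower by the same test, their median change was 0.07, and their highest log2 fold change was 0.65. Of all 8474 genes with a mean under the reference, 19 (0.224%) were higher by that test. The call of Ccr1 was lost without control b (adjusted p = 0.0701) and when all deposited rows were tested (0.0989).

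Ccr1, Ccr9 and Ccr2 belong to a chemokine receptor cluster on chromosome 9. Of the 10 genes next to Ccr1, 5 were measured and 0 passed the test. Ccr1l1, a close relative of Ccr1 whose transcripts its row might also bind, had means of 5.01 ± 0.07 and 5.41 ± 0.22 (SD, n = 3 each) and did not pass (log2 fold change 0.40 ± 0.13 SE, limma adjusted p = 0.168). Its groups did not overlap. Ccr3, the eotaxin receptor, had a log2 fold change of 0.05, Xcr1, a receptor of cross-presenting dendritic cells, -0.01, and Cxcr6, a receptor of tissue lymphocytes, -0.07.

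Ccr2, the CCL2 receptor that draws monocytes out of the marrow, read 5.14, 4.76 and 5.34 in controls and 5.75, 5.77 and 5.0 in the deleted mice. Deleted c lay among the controls while deleted a and b lay above them. The log2 fold change was 0.43 ± 0.22 (SE, limma adjusted p = 0.390), and without deleted c it was 0.68 (0.132). Ccr9, the CCL25 receptor of thymus-seeding progenitors, read 4.60, 4.63 and 4.68 in controls and 4.53, 4.73 and 5.67 in the deleted mice. Its difference rested on deleted c: the log2 fold change was 0.34 ± 0.25 (SE, limma adjusted p = 0.560) with that array and -0.0062 without it. Both genes were under the olfactory reference on all 6 arrays.

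Cxcr2, the receptor of CXCL1, CXCL2 and related neutrophil chemokines, read 5.44, 5.82 and 5.63 in controls and 5.98, 6.26 and 6.04 in the deleted mice. Each deleted mouse was above each control, by a margin smaller than the range within either group, and only the value of deleted b exceeded the reference of its array. The log2 fold change was 0.46 ± 0.13 (SE), or 1.38-fold with a 95% interval of 1.13 to 1.69, with a limma adjusted p of 0.122 and an exact permutation p of 0.1. Over the alternatives that tested it, single arrays left out included, the adjusted p lay between 0.0905 and 0.290. Cxcr1, the closest relative of Cxcr2, had a difference of the opposite sign (-0.28 ± 0.13 SE, limma adjusted p = 0.347), with overlapping groups.

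Cxcr4, the CXCL12 receptor of stem and progenitor cells, read 10.46, 10.12 and 10.13 in controls and 10.21, 10.18 and 10.23 in the deleted mice. The deleted values lay within the range of the controls and all were far above the reference. The means were 10.24 ± 0.20 and 10.21 ± 0.02 (SD, n = 3 each). The log2 fold change was -0.03 ± 0.12 (SE, limma adjusted p = 0.930), and its 95% interval of -0.30 to 0.24 corresponds to between 0.813 and 1.18 times the control level. A change as large as that of Ffar2 or Ccr1 lies outside that interval. Its sign turned without control a (0.083).

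Cx3cr1, the fractalkine receptor of monocytes and of some progenitors, read 7.02, 6.90 and 7.44 in controls and 6.91, 7.29 and 6.96 in the deleted mice. The groups overlapped, above the reference on all arrays, with a log2 fold change of -0.07 ± 0.16 (SE, 95% interval -0.43 to 0.30, limma adjusted p = 0.889). C5ar1, the C5a receptor, also on chromosome 7, read 4.45, 4.90 and 4.68 in controls and 4.58, 4.55 and 4.72 in the deleted mice. Its groups overlapped below the reference on all arrays, with a log2 fold change of -0.06 ± 0.13 (SE, limma adjusted p = 0.881), so no level of C5ar1 could be told from background in either genotype.

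**Figure D2:**
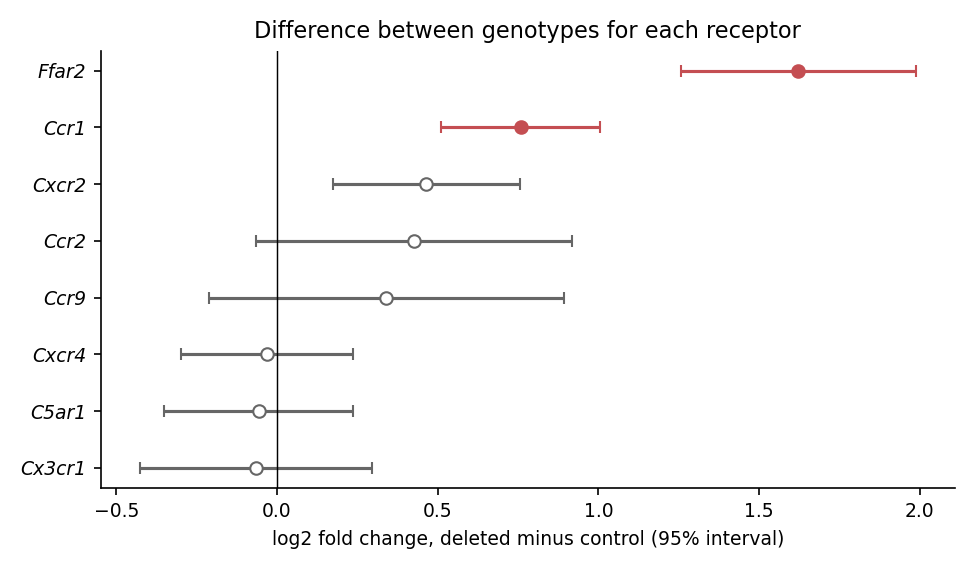
Log2 fold change (deleted minus control) of each measured receptor, with 95% intervals from the fit over all genes; red filled points passed at an adjusted p under 0.05. Ffar2 (1.62) and Ccr1 (0.76) passed, the interval of Cxcr2 (0.17 to 0.76) lies above 0 although its adjusted p was 0.122, and those of Cxcr4, Cx3cr1 and C5ar1 are centred near 0.

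**Figure D3:**
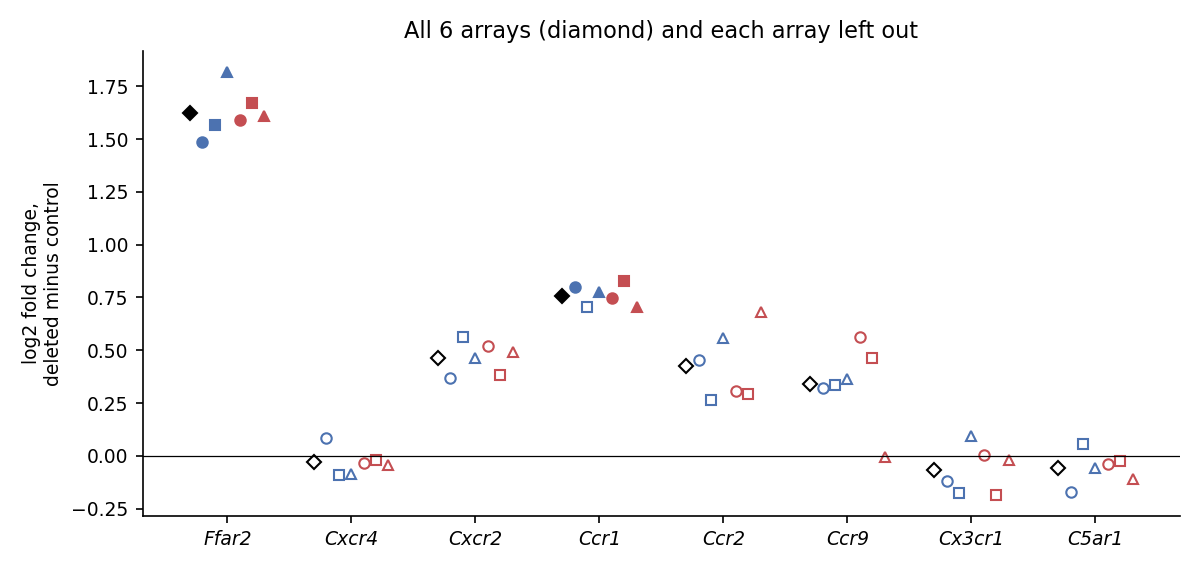
Log2 fold change of each receptor from all 6 arrays (black diamond) and with 1 control (blue) or 1 deleted array (red) left out, where circle, square and triangle stand for array a, b or c; filled symbols passed at an adjusted p under 0.05. Ffar2 stays filled throughout, Ccr1 is open without control b, and the value of Ccr9 moves from 0.34 to -0.0062 without deleted c.

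No further receptor of this kind passed the test. Of 17 measured chemokine receptors outside the 8, 0 rose and 0 fell, with a median log2 fold change of 0.03 and a range of -0.28 to 0.37. The smallest p among them belonged to the atypical receptors Ackr1 (0.27 ± 0.11 SE, limma adjusted p = 0.254) and Ackr3, which takes up CXCL12 (0.29 ± 0.12 SE, limma adjusted p = 0.257). Of 17 other receptors for complement, formyl peptides and lipid attractants, 0 passed, with a median of -0.03. Ltb4r1, the leukotriene B4 receptor of phagocytes, read 7.36, 7.29 and 7.33 in controls and 8.17, 8.20 and 7.54 in the deleted mice. All deleted values were higher, deleted c by the least. The log2 fold change of 0.64 ± 0.17 (SE) had a limma adjusted p of 0.103. With single arrays left out, the adjusted p lay between 0.0189, without deleted c, and 0.256. Ltb4r1 passed in none of the other alternatives. S1pr3, a sphingosine 1-phosphate receptor, had 0.49 ± 0.15 (SE, limma adjusted p = 0.157).

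Of 19 other metabolite receptors, 0 passed, with a median log2 fold change of 0.08. P2ry14, the UDP-glucose receptor found on haematopoietic stem and progenitor cells, read 9.80, 9.78 and 9.87 in controls and 10.30, 10.30 and 10.04 in the deleted mice. Its groups did not overlap and the log2 fold change was 0.40 ± 0.11 (SE, limma adjusted p = 0.116). The ADP receptor P2ry1 had 0.41 ± 0.15 (SE, limma adjusted p = 0.213).

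Among 21 genes of ligands of these receptors, 1 rose and 2 fell, with a median log2 fold change of 0.01. Ccl5, a ligand of CCR1, read 7.63, 7.97 and 8.03 in controls and 8.62, 8.73 and 8.39 in the deleted mice (log2 fold change 0.71 ± 0.14 SE, limma adjusted p = 0.0426). Camp, also a neutrophil marker, has a peptide product that binds FPR2. It read 7.10, 6.74 and 7.31 in controls and 6.29, 6.01 and 5.95 in the deleted mice (-0.97 ± 0.16 SE, limma adjusted p = 0.0230). Its mean in the deleted mice (6.08) lay under the reference, so that level was not separated from background. Anxa1, a ligand of formyl peptide receptors that restrains neutrophils, read 7.81, 7.97 and 7.97 in controls and 7.12, 7.40 and 7.42 in the deleted mice (-0.61 ± 0.12 SE, limma adjusted p = 0.0409). In Ccl5, Camp and Anxa1 the groups did not overlap. Ccl3, a further ligand of CCR1, did not pass (-0.64 ± 0.39 SE, limma adjusted p = 0.475). Its control a (5.43) lay below all deleted values, and controls b (7.04) and c (7.29) lay above them. The calls of Ccl5 and Anxa1 were lost when any single array was left out (adjusted p up to 0.141 and 0.139), and Camp lost its call in 4 of those 6 fits, without either control a or c and without either deleted b or c (up to 0.0915).

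Downstream of the receptors, 0 of 31 genes of G protein subunits and effectors passed, with a median log2 fold change of -0.02. Plcb2, the phospholipase driven by these G proteins in blood cells, had -0.54 ± 0.13 (SE, limma adjusted p = 0.0788), and the G protein subunit Gng11 -0.54 ± 0.14 (SE, limma adjusted p = 0.103). In 14 of the 31 the groups did not overlap, 6 with higher and 8 with lower values after deletion, against 12.5% and 8.68% of all genes. Of 15 measured genes of receptor desensitisation, 0 passed, with a median of -0.01. Arrb1, an arrestin that uncouples activated receptors, had -0.38 ± 0.11 (SE, limma adjusted p = 0.145), and Wipf1, a regulator of actin that the list also holds, 0.27 ± 0.11 (SE, limma adjusted p = 0.261).

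**Figure D4:**
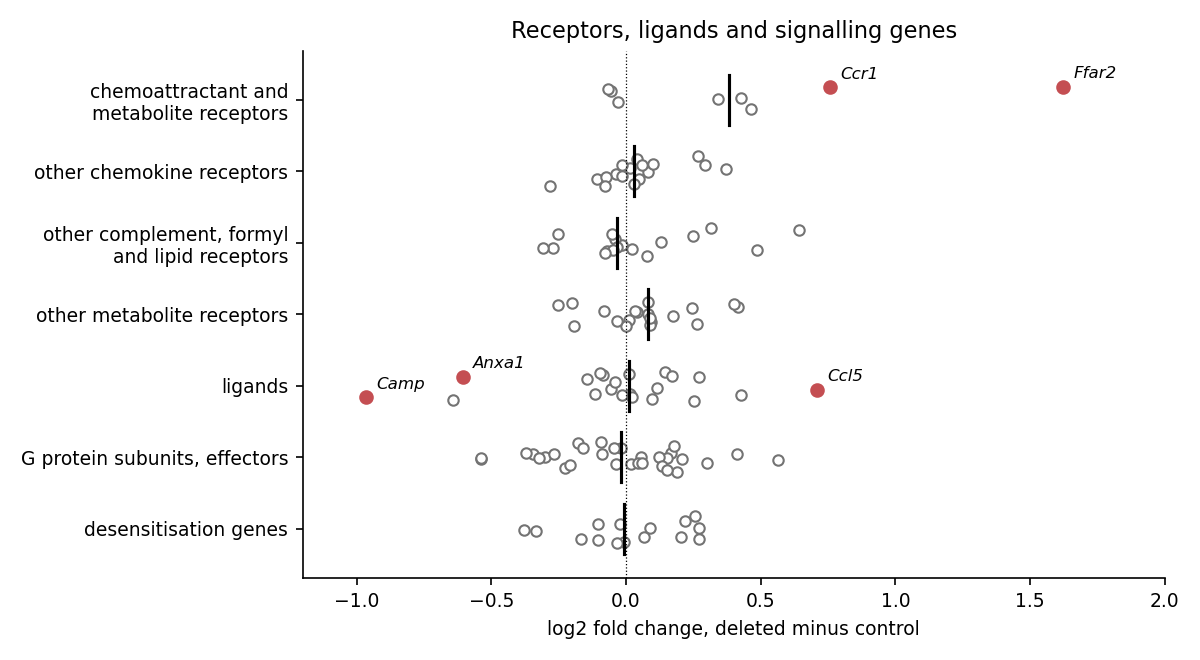
Log2 fold change (deleted minus control) of every measured gene of the 8 receptors and of 6 lists of related receptors, ligands and signalling genes; each circle is a gene, red where the adjusted p was under 0.05, and the vertical dash is the median of the list. Ffar2, Ccr1, Ccl5, Anxa1 and Camp are the genes that passed, and the medians of the 6 other lists lie between -0.03 and 0.08.

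The genes whose values followed those of Ffar2 most closely were found by the root mean square difference between log2 values, each centred on its own mean over the 6 arrays. They were Ifi206, an interferon-inducible gene (0.120), Trim13, a ubiquitin ligase (0.204), Emilin2, an extracellular matrix protein (0.205), Clec2i, a C-type lectin (0.228), and Pno1, a ribosome assembly factor (0.269), against a median of 0.833 over all genes. Each had higher values in all deleted mice, with log2 fold changes from 1.13 (Pno1) to 1.59 (Ifi206), and in each, as in Ffar2, control c was the highest control. Those closest to Ccr1 were the transcription factor Cebpg (0.0442), the Polycomb partner Rybp (0.0569), the glycolytic regulator Pfkfb3 (0.0628), the motor protein Kif5b (0.0853) and the transcription factor Zbtb16 (0.0897), against a median of 0.399. These 5 genes read above the reference on all arrays, unlike Ccr1. Both the difference between the groups and the spread within them enter this measure, which rests on 6 arrays.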

How the data were processed

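RNA of sorted LSK CD150- cells from 6 mice was read on 1-colour arrays, 1 array a mouse. Per the labels' protocols, the RNA was amplified before labelling. Each row of the table the authors deposited holds a log2 intensity summary of a probe set. Per the submitters' processing notes, the tools were RMA and Affymetrix Expression Console 1.1.2, whose settings were not given in the sources used here. All arrays entered as deposited, with no filter on dim rows. The number of arrays limits the precision. Replicates are separate mice, per the series' design text.

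Of 35556 rows, 21789 were tied to 1 gene, 1621 to more than 1 and 12146 to none in the platform table used. Of the 19938 genes, 19855 matched RefSeq by gene ID, which changed 0 symbols. A gene with several rows was read from the row with the highest mean. Genotypes were compared over all genes by moderated linear models with genotype as the sole term, two-sided (lmFit and eBayes of limma 3.58.1, R 4.3.3), with Benjamini-Hochberg adjustment and a threshold of 0.05. The code was checked on simulated data. Sums of marker lists are of 2 to the power of the log2 values. Summaries used Python 3.11.15 with pandas 2.3.3, and figures matplotlib 3.10.9.

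The receptors and gene lists were chosen with earlier results of these data known. Named are all 10 receptors, the genes of each related list that passed (otherwise the 2 with the smallest p), marker genes that passed (otherwise the 1 with the smallest p), Cebpa, genes within 5 places of a receptor that passed, and the 5 genes most like each such receptor. Cxcr1, Ffar3 as a relative, Ccl3, and marker genes cited as under the reference or as above it without passing were named after their values were seen. Alternatives were other scalings, filters, row choices and limma settings, and single arrays left out.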

Additional observations from a re-analysis of the deposited data

How the results depend on the processing

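Testing all deposited rows together left 0 of the 8 receptors past the threshold, with log2 fold changes of 1.62 for Ffar2 and 0.76 for Ccr1 as before, and 4 higher and 9 lower rows in all. Filters at the median of mean intensity or at the olfactory reference removed Ccr1, Cxcr2, Ccr2, Ccr9 and C5ar1 from the test, so 1 receptor passed, with 235 and 214 genes higher in all. With single arrays left out, 1 to 2 receptors were higher, all genes past the threshold numbered 28 to 135 higher and 25 to 115 lower (both lowest without control b), and Ccr1 lay between 0.70 and 0.83. Over the same fits Cxcr4 lay between -0.090 and 0.083 and Cx3cr1 between -0.18 and 0.095. C5ar1 lay between -0.17 and 0.056 and Ccr9 between -0.0062 and 0.56. Each of these 4 had a change of sign. In these fits 3 to 4 receptors had groups that did not overlap. Leaving out an array can only keep or raise that count, and the share of all genes was not computed for these fits.

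With the letters a, b and c as a replicate block, Ffar2 (1.62, adjusted p = 0.00470) and Ccr1 (0.76, adjusted p = 0.0245) stayed past the threshold, and 127 genes were higher and 147 lower. Ccl5 then had an adjusted p of 0.0586. Deviations of same-letter arrays from their group means correlated at -0.01, -0.04 and 0.06, so the letters were not taken as pairs. An intensity trend, a robust prior, quantile normalization, median centring, array weights and the mean of all rows kept every receptor on its side of the threshold and in its direction.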
